A study of Homo sapiens with 12 samples.

Results

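A set of 10 genes of the integrated stress response, the pathway that runs through the transcription factor ATF4, was followed across the 6 groups of the series: ATF4, DDIT3, ASNS, TRIB3, CHAC1, SESN2, DDIT4, PSAT1, CEBPB and PPP1R15A. They were chosen by name, as the rows of the count tables that carry these 10 symbols. All 10 were found among 60645 gene names in each of the 12 libraries, and all 10 were among the 20377 genes abundant enough to be tested. The libraries are polyA RNA-seq of HEK-293T cells, a line from human embryonic kidney, that lack ARID1A through a knockout shared by every group. Onto this background came overexpression of wild-type (WT) ARID1A, of ARID1A without its disordered stretch IDR1b (ΔIDR1b) or of no insert (empty vector), and each of these was combined with either a further empty vector or a plasmid for EWS-FLI1, the fusion oncoprotein of Ewing sarcoma. The 6 groups are therefore knockout, WT and ΔIDR1b cells with the empty vector and the same with EWS-FLI1, each with 2 libraries, called repeats 1 and 2. Plasmid was given at 2 µg, with 48 h of growth after transfection, in all 12 libraries, those without EWS-FLI1 included. All groups come from a single knockout line, named 12KO, and both proteins were introduced by overexpression.

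When a cell lacks amino acids, accumulates unfolded protein or meets other stress, kinases phosphorylate the initiation factor eIF2α. General translation then falls while ATF4 messenger RNA is translated more, so that the ATF4 protein can rise without more ATF4 RNA. ATF4 pairs with other bZIP proteins such as C/EBPβ and binds C/EBP-ATF response elements of its target genes. The targets fall into roles: factors that carry the signal on (DDIT3, which encodes CHOP), enzymes that make amino acids (ASNS, PSAT1), brakes on growth signalling (SESN2, DDIT4, TRIB3), an enzyme that breaks down glutathione (CHAC1), and a feedback subunit that restores translation (PPP1R15A, which encodes GADD34). ARID1A is a subunit of the BAF (SWI/SNF) chromatin remodelling complex. The libraries measure RNA only, so neither eIF2α phosphorylation nor ATF4 protein was observed.

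Promoter sequence shows which of the 10 genes carry the letters that bZIP or hypoxia factors are known to bind close to the start site. The windows are the 250 bases before each start in RefSeq (GRCh38.p14), written 5′ to 3′ on the gene's strand with the matched letters in capitals. All 10 genes had a window, 16 windows in all. The C/EBP-ATF response element was searched as TGATGNAA on both strands. It was found before ASNS and CHAC1, and in 3.14% of 35116 windows of all genes. The 30 bases around each match are shown because these 2 genes share the element and moved differently in the results (chr15:40953251-40953280, + strand, and chr7:97872458-97872487, − strand). In CHAC1 the match starts 209 bases before the start site and reads as the reverse complement, and in ASNS it starts 68 bases before it.
CHAC1: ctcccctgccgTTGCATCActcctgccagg
ASNS: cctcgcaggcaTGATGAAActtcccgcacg

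The cAMP response element, searched as TGACGTCA (its own reverse complement), was found before PPP1R15A alone of the 10, at 58 bases before the start, and in 1.65% of all windows. The core of the hypoxia response element, searched as ACGTG on both strands, was found before DDIT4, at 125 bases, and before ATF4, where both orientations overlap in 1 run of 6 letters at 82 bases (chr22:39520465-39520494, + strand). It occurred in 18.5% of all windows. None of these letters was found in the windows of SESN2, TRIB3, DDIT3, PSAT1 or CEBPB. The stretches before the annotated gene are shown for PPP1R15A (chr19:48872171-48872420) and DDIT4 (chr10:72273674-72273918), the 2 genes that fell furthest in the knockout comparisons, and for SESN2 (chr1:28259268-28259517), which rose in them, all on the + strand. A match is a description of letters, and a missing match says only that these letters are not in the window.
ATF4: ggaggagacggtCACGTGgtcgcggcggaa
PPP1R15A: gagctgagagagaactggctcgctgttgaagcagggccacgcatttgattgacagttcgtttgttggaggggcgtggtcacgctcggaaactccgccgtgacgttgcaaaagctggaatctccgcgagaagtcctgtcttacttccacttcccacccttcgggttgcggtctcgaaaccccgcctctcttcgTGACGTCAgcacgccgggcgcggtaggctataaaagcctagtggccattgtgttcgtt
DDIT4: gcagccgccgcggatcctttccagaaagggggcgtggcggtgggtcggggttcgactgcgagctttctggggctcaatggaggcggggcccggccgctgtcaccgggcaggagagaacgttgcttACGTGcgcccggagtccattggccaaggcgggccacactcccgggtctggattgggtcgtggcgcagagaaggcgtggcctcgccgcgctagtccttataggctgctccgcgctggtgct
SESN2: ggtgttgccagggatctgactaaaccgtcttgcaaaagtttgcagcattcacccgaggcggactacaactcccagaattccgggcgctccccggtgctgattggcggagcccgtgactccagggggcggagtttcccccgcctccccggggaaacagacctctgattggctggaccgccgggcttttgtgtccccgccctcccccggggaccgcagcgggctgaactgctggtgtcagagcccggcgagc

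The libraries held 11702251 to 14445379 counts assigned to genes, which puts 3 counts, the limit that a count of 0 allows, at 0.208 to 0.256 CPM, the counts scaled to equal library totals. The scarcest value among the 10 genes was 46 counts, for CHAC1 in a knockout library. Levels below are CPM after trimmed-mean (TMM) scaling of the libraries. ARID1A stood at 147 to 165 CPM in the 4 knockout libraries, which thus still held its RNA, at 1843 to 2291 CPM with WT ARID1A and at 2608 to 2878 CPM with ΔIDR1b. FLI1 had 0 to 2 counts without EWS-FLI1 and group means of 1759 CPM in knockout, 3568 CPM in WT and 1897 CPM in ΔIDR1b cells with it, so the introduced RNAs matched the labels and differed in level between groups. Of the HEK-293T markers, PAX2, LHX1, NEFL, VIM and KRT18 were present in every library and NEFM had 2 counts in all. Of 10 markers of other cell types, COL1A1 reached 73.0 to 105 CPM and the other 9 stayed at or below 1.84 CPM. The labels do not say whether the repeats are separate cultures, so the p-values below measure only the spread between these libraries, which may be technical.

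Divided by exonic length, DDIT4 was the most abundant of the 10 genes, with a mean of 402 CPM per kilobase over the 12 libraries, followed by ATF4 with 293 CPM per kilobase. PPP1R15A (88.5) and PSAT1 (85.5) came next and were close to each other, then SESN2 (23.3), CEBPB (19.8) and DDIT3 (16.8). CHAC1 (9.72), TRIB3 (9.04) and ASNS (8.18) were the least abundant per kilobase. The order changed with the ARID1A state: DDIT4 RNA stood above ATF4 RNA in knockout cells with the empty vector (659 against 284 CPM per kilobase) and below it in ΔIDR1b cells (215 against 251). Read pairs that overlapped more than 1 gene were not counted, which lowers the values of genes that share exons. Other gene models share 39.63% of the exonic bases of DDIT3 and 49.33% of those of ASNS, and CEBPB shares 12.56%. The antisense neighbours MARS1 and MBD6 of DDIT3 and CEBPB-AS1 of CEBPB were not separated by strand. The shared ASNS exons all belong to a read-through model that had 9 to 24 counts per library. The places of DDIT3 and ASNS in the order above may therefore be too low. The named pseudogenes of ASNS held 3185 counts over all libraries, those of ATF4 280 and those of PSAT1 23.

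The ratio of the highest to the lowest of the 6 group means ranked the genes by how much they varied. CHAC1 varied 9.75-fold, PPP1R15A 4.07-fold, DDIT4 3.14-fold, TRIB3 3.02-fold, DDIT3 2.89-fold and SESN2 2.56-fold. ASNS varied 1.81-fold, CEBPB 1.43-fold, PSAT1 1.31-fold and ATF4, the factor after which the pathway is named, 1.30-fold, the narrowest range of the 10.

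**Figure D1:**
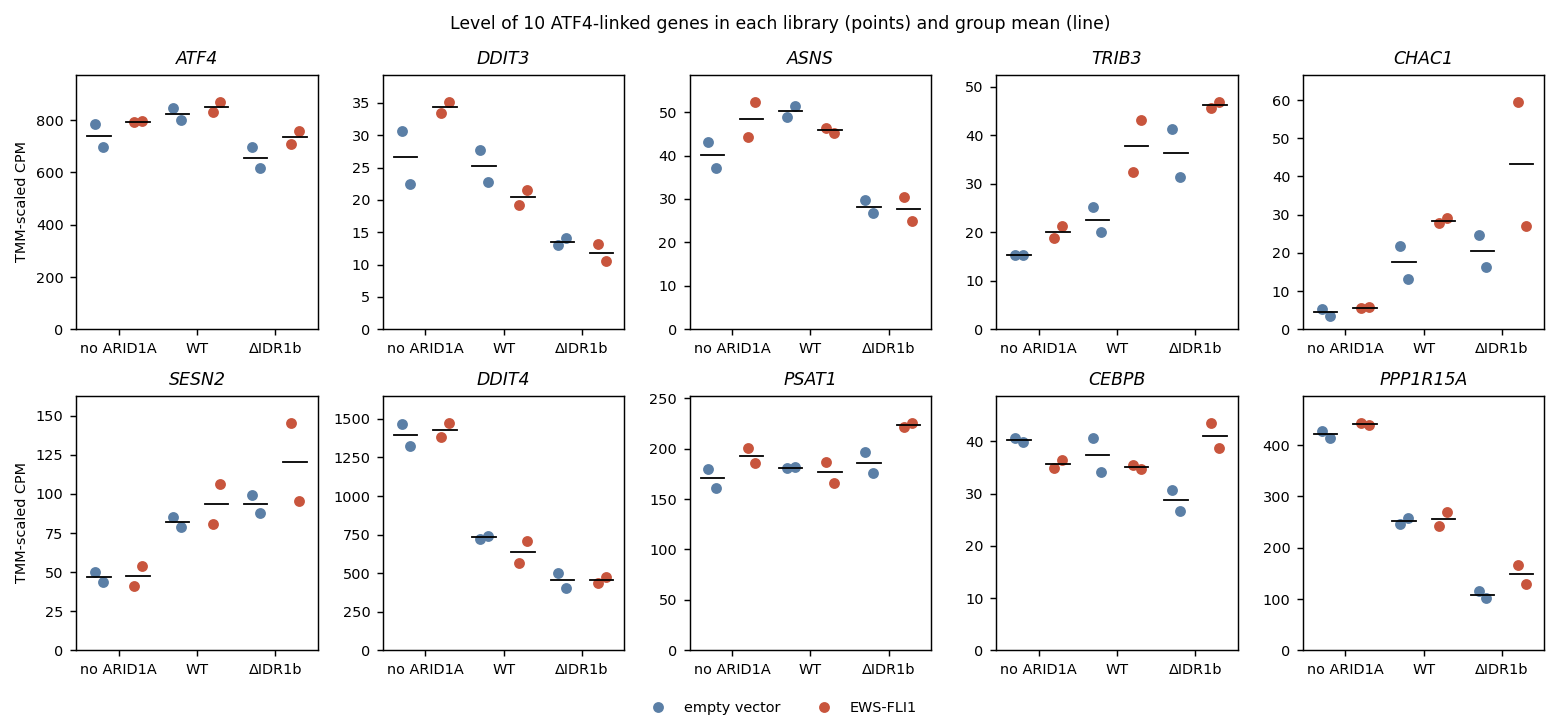
TMM-scaled CPM (vertical axes, from 0) of the 10 genes in each of the 12 libraries (points, blue for the empty vector and red for EWS-FLI1) by ARID1A state, with group means as lines. Within each vector TRIB3, CHAC1 and SESN2 are lowest in the knockout libraries, whereas DDIT4 and PPP1R15A are highest there, and ATF4 changes least. Across vectors TRIB3 overlaps, with 21.3 CPM in a knockout library with EWS-FLI1 and 20.02 CPM in a WT library with the empty vector.

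The study's first question for these genes is whether they depend on ARID1A. In knockout cells given WT ARID1A with the empty vector, 5 of the 10 genes changed against the knockout, compared with 11.7% of all tested genes. TRIB3, CHAC1 and SESN2 rose and DDIT4 and PPP1R15A fell. In such bulk libraries less RNA per cell and fewer cells expressing a gene cannot be told apart. With EWS-FLI1 present 6 of 10 changed, against 18.1% of all genes. These were the same 5 genes in the same directions, joined by DDIT3, which fell. The 2 versions of this comparison share no library.

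ΔIDR1b ARID1A changed more of the genes relative to the knockout. With the empty vector 8 of 10 were called, against a background of 33.3%, with TRIB3, CHAC1 and SESN2 higher and DDIT3, ASNS, DDIT4, CEBPB and PPP1R15A lower. With EWS-FLI1 7 of 10 were called, against 35.9%, and these 7 had all been called in the same direction with the empty vector. CEBPB was the gene called with the empty vector alone. The median absolute log2 difference of the 10 genes was 0.98 in the empty-vector and 1.27 in the EWS-FLI1 libraries, beside 0.42 and 0.45 over all tested genes.

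Between the 2 forms of ARID1A, 7 of 10 genes differed with the empty vector, against 24.5% of all genes, and 5 of 10 with EWS-FLI1, against 18.6%. Of the 7, 6 were lower with ΔIDR1b (ATF4, DDIT3, ASNS, DDIT4, CEBPB and PPP1R15A) and TRIB3 was higher. With EWS-FLI1, DDIT3, ASNS, DDIT4 and PPP1R15A were lower and PSAT1 was higher. Libraries with the same repeat number deviated together within each vector, although the labels do not pair them. With repeats fitted as pairs within each vector, 8 of 10 genes differed between the 2 forms with EWS-FLI1, against 24.8% of all genes. CHAC1 and SESN2 were then higher and ATF4 lower in addition. That pairing was taken from these same values and not from the labels. Without pairing, leaving out repeat 1 of ΔIDR1b took the CHAC1 and SESN2 log2 differences to -0.078 and 0.025. ARID1A RNA itself was higher with ΔIDR1b than with WT (means of 2787 against 2056 CPM with the empty vector), so the deletion and the amount of ARID1A cannot be told apart in this comparison.

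**Figure D2:**
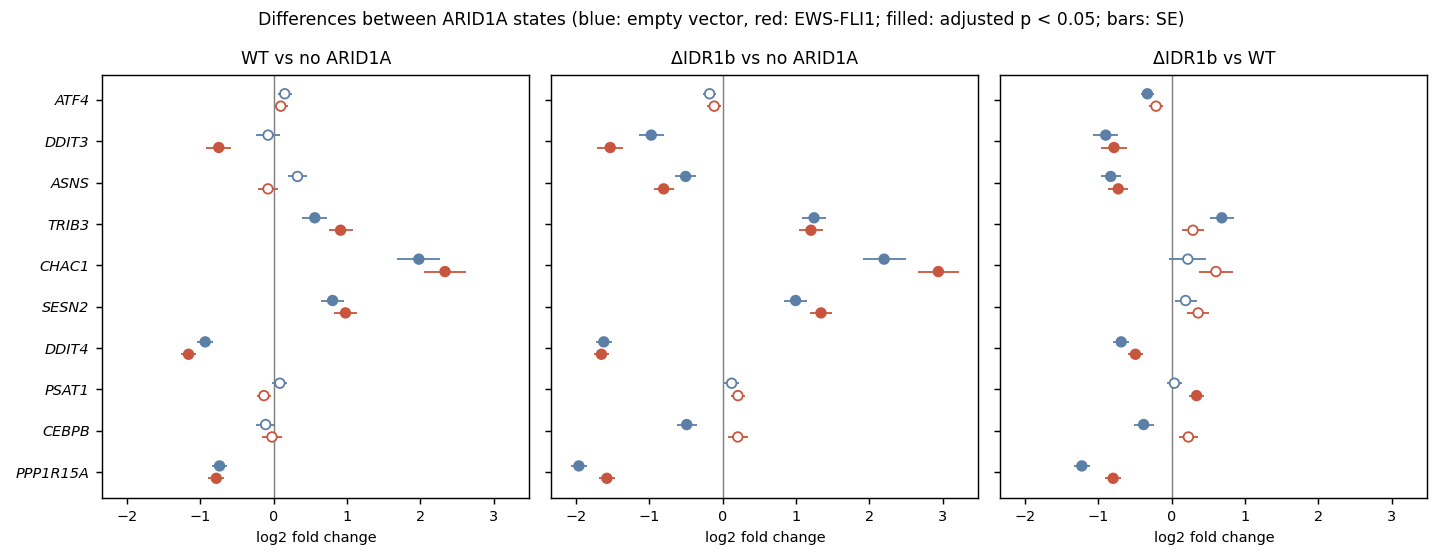
Log2 fold change (horizontal axes, bars are standard errors) of each gene for WT against knockout, ΔIDR1b against knockout and ΔIDR1b against WT, with the empty vector in blue and EWS-FLI1 in red; filled points passed an adjusted p under 0.05. CHAC1 lies furthest to the right in both knockout comparisons, PPP1R15A and DDIT4 lie to the left in all 3 panels, and ATF4 stays near 0.

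ATF4 RNA (chr22:39519695-39522683 in GRCh38, as are all gene positions here), from which the central activator of the pathway is made, was nearly flat. With the empty vector its repeats came to 784 and 699 CPM in knockout cells, 846 and 802 CPM with WT ARID1A and 696 and 615 CPM with ΔIDR1b. The WT libraries were the highest and the ΔIDR1b libraries the lowest, and no 2 states overlapped. The log2 difference between WT and knockout was 0.15 (SE 0.09, adjusted p = 0.308), with a 95% interval from -0.03 to 0.34, and that between ΔIDR1b and knockout was -0.18 (adjusted p = 0.143, and 0.0455 when only these 4 libraries were fitted). ΔIDR1b against WT gave -0.33 (SE 0.09, adjusted p = 0.00814), the one called difference of ATF4 among the 13 contrasts of the main fit, which had no pairing. That call was lost without repeat 1 of the WT libraries (adjusted p = 0.0794) or without repeat 2 of the ΔIDR1b libraries (adjusted p = 0.168). With EWS-FLI1 the ATF4 levels were 792 and 797 CPM in knockout, 829.9 and 870.5 CPM in WT and 708 and 759.9 CPM in ΔIDR1b cells, the same order over a smaller range. No pair of states with EWS-FLI1 passed the test in the main fit, and with repeats paired ΔIDR1b was below WT (log2 -0.21, adjusted p = 0.0398). The ΔIDR1b values were lower than both other states with both vectors once trends with GC content and length were removed: with EWS-FLI1 the log2 difference to WT was then -0.32 (adjusted p = 3.82e-04) and that to the knockout -0.20 (adjusted p = 0.0171), and with the empty vector that to the knockout was -0.28 (adjusted p = 0.00109).

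CEBPB (chr20:50190830-50192668) encodes C/EBPβ, a bZIP partner of ATF4. Its empty-vector libraries stood at 40.7 and 39.9 CPM in knockout, 40.6 and 34.1 CPM in WT and 30.8 and 26.7 CPM in ΔIDR1b cells. The ΔIDR1b libraries were the lowest, by -0.49 on the log2 scale against the knockout (SE 0.14, adjusted p = 0.00533) and by -0.38 against WT (SE 0.14, adjusted p = 0.0380). Both calls hung on single libraries. Without repeat 2 of ΔIDR1b the first had an adjusted p of 0.102 and the second of 0.293. The second was also lost without repeat 1 of WT (0.334) or of ΔIDR1b (0.0552), with upper-quartile scaling (0.0859) and without the filter on low counts (0.0624). With EWS-FLI1 the ΔIDR1b libraries were instead the upper ones, at 43.5 and 38.7 CPM against 34.9 and 36.4 CPM in knockout and 35.5 and 34.7 CPM in WT, and neither difference was called.

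DDIT3 (chr12:57516588-57521737) encodes CHOP, a bZIP factor that ATF4 induces and that can promote cell death. Beside the empty vector it stood at 30.6 and 22.5 CPM in knockout, 27.8 and 22.7 CPM in WT and 13.01 and 14.1 CPM in ΔIDR1b cells. Knockout and WT overlapped, and both ΔIDR1b libraries lay below them, 1.96-fold below the knockout (log2 -0.97, SE 0.17, adjusted p = 4.27e-05). With EWS-FLI1 the 3 states separated: 33.4 and 35.2 CPM in knockout, 19.3 and 21.6 CPM in WT and 13.2 and 10.6 CPM in ΔIDR1b cells. DDIT3 then fell by 0.75 with WT (SE 0.17, adjusted p = 0.00171) and by 1.53 with ΔIDR1b (SE 0.17, adjusted p = 1.93e-08) on the log2 scale relative to the knockout. The EWS-FLI1 difference between ΔIDR1b and WT was -0.78 (adjusted p = 0.00193), which became 0.0503 without repeat 2 of ΔIDR1b. The WT effect on DDIT3 was called with EWS-FLI1 and not without it, but the test of that difference itself was not passed (log2 -0.67, SE 0.24, adjusted p = 1).

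TRIB3 (chr20:362835-397559) encodes a pseudokinase that restrains ATF4, CHOP and AKT signalling. With the empty vector it came to 15.4 and 15.3 CPM in knockout, 25.2 and 20.02 CPM in WT and 41.3 and 31.5 CPM in ΔIDR1b cells. The 3 states did not overlap and followed the order knockout, WT, ΔIDR1b. Relative to the knockout TRIB3 rose 1.48-fold with WT (log2 0.56, SE 0.17, adjusted p = 0.0258) and 2.37-fold with ΔIDR1b (log2 1.25, SE 0.16, adjusted p = 3.69e-07). The WT call was lost with upper-quartile scaling (adjusted p = 0.0520) and without repeat 1 (0.118) or 2 (0.148) of the knockout or repeat 1 of WT (0.319). ΔIDR1b exceeded WT by 0.68 (SE 0.16, adjusted p = 0.00174), and this was lost without repeat 2 of WT (0.0628) or repeat 1 of ΔIDR1b (0.0927). With EWS-FLI1 the levels were 18.9 and 21.3 CPM, 32.5 and 43.1 CPM and 45.7 and 46.9 CPM in the same order of states, and both rises over the knockout were called (log2 0.91 with WT and 1.20 with ΔIDR1b). The step from WT to ΔIDR1b was not called there (0.29, 95% interval -0.02 to 0.60).

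CHAC1 (chr15:40952962-40956512), the glutathione-degrading enzyme, was the most variable of the genes and lowest without ARID1A. Empty-vector cells had 5.43 and 3.44 CPM without ARID1A, 21.9 and 13.1 CPM with WT ARID1A and 24.6 and 16.3 CPM with ΔIDR1b. Both ARID1A forms lay well above the knockout and overlapped each other. CHAC1 rose 3.94-fold with WT (log2 1.98, SE 0.29, adjusted p = 1.84e-05) and 4.60-fold with ΔIDR1b (log2 2.20, SE 0.29, adjusted p = 3.85e-07). With EWS-FLI1 it stood at 5.46 and 5.79 CPM, 27.8 and 29.03 CPM, and 59.5 and 26.9 CPM, respectively. The 2 ΔIDR1b libraries were thus far apart, on either side of the WT values. The rise over the knockout was 5.05-fold with WT (log2 2.34, SE 0.28, adjusted p = 2.99e-07) and 7.67-fold with ΔIDR1b (log2 2.94, SE 0.28, adjusted p = 4.86e-10), or 2.26 on the log2 scale without repeat 1 of ΔIDR1b (adjusted p = 1.44e-07). The difference between ΔIDR1b and WT in CHAC1 was not called with the empty vector (0.22, 95% interval -0.29 to 0.73) or with EWS-FLI1 (0.60, 0.12 to 1.09, adjusted p = 0.0698). With repeats paired the latter was called (0.53, adjusted p = 0.00689). Without pairing it was -0.078 without repeat 1 of ΔIDR1b and 1.07 without repeat 2.

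SESN2 (chr1:28259518-28282491), a sestrin that restrains mTORC1 when leucine is scarce, followed CHAC1 with smaller steps. Its empty-vector levels were 49.96 and 44.0 CPM in knockout, 85.3 and 78.7 CPM in WT and 99.2 and 88.0 CPM in ΔIDR1b cells. The knockout libraries lay below all others. SESN2 rose 1.75-fold with WT (log2 0.80, SE 0.15, adjusted p = 5.44e-04) and 1.99-fold with ΔIDR1b (log2 0.99, SE 0.15, adjusted p = 4.76e-06). With EWS-FLI1 it had 40.8 and 54.2 CPM, 81.1 and 106 CPM, and 145 and 95.3 CPM, so that ΔIDR1b repeat 1 was again the highest library. The rises over the knockout were 0.98 and 1.34 on the log2 scale, and the second was 1.00 without that library (adjusted p = 1.63e-05). The difference between ΔIDR1b and WT in SESN2 was not called with either vector (0.19, 95% interval -0.11 to 0.49, and 0.36, 0.06 to 0.66). With repeats paired the EWS-FLI1 difference was called (0.37, adjusted p = 0.00705). Without pairing it was 0.025 without repeat 1 of ΔIDR1b and 0.63 (adjusted p = 0.00625) without repeat 2.

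DDIT4 (chr10:72273919-72276036) encodes REDD1, another inhibitor of mTORC1, which hypoxia and glucocorticoids also induce. It moved opposite to SESN2. In the empty-vector libraries it stood at 1469 and 1321 CPM in knockout, 720.0 and 743 CPM in WT and 503 and 407 CPM in ΔIDR1b cells. The 3 states were separated, with the knockout highest. DDIT4 was 1.91-fold lower with WT (log2 -0.93, SE 0.11, adjusted p = 1.44e-07) and 3.07-fold lower with ΔIDR1b (log2 -1.62, SE 0.11, adjusted p = 1.04e-13). With EWS-FLI1 the levels were 1381 and 1474 CPM, 568 and 711 CPM, and 434 and 475 CPM. DDIT4 differed between every pair of states with both vectors, and ΔIDR1b was below WT by 0.69 (adjusted p = 1.17e-05) without and by 0.49 (adjusted p = 0.00108) with EWS-FLI1.

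PPP1R15A (chr19:48872421-48876058) encodes GADD34, the regulatory subunit that brings protein phosphatase to eIF2α and ends the response. Its empty-vector levels were 428 and 413 CPM in knockout, 247 and 259 CPM in WT and 115 and 102 CPM in ΔIDR1b cells. With EWS-FLI1 they were 443 and 438 CPM, 243 and 271 CPM, and 167 and 129 CPM. No states overlapped with either vector. Relative to the knockout PPP1R15A was 1.66-fold lower with WT (log2 -0.74, SE 0.11, adjusted p = 1.19e-05) and 3.88-fold lower with ΔIDR1b (log2 -1.96, SE 0.11, adjusted p = 1.86e-15) in the empty-vector libraries, and 1.72-fold and 2.98-fold lower with EWS-FLI1. ΔIDR1b was below WT by 1.22 (SE 0.11, adjusted p = 6.18e-10) and by 0.80 (SE 0.11, adjusted p = 2.60e-06), respectively.

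ASNS (chr7:97851677-97872542) makes asparagine and is among the best-known ATF4 targets. With the empty vector it had 43.0 and 37.0 CPM in knockout, 48.9 and 51.5 CPM in WT and 29.8 and 26.7 CPM in ΔIDR1b cells. The states did not overlap, with WT highest and ΔIDR1b lowest. The WT difference from the knockout was not called (log2 0.33, SE 0.13, adjusted p = 0.113, and 0.0460 with repeats paired). ΔIDR1b was below the knockout by 0.50 (SE 0.14, adjusted p = 0.00486) and below WT by 0.83 (SE 0.14, adjusted p = 3.26e-05). The call against the knockout was lost without repeat 1 of the knockout (0.0973) or repeat 2 of ΔIDR1b (0.0787). With EWS-FLI1 the levels were 44.2 and 52.4 CPM, 46.4 and 45.3 CPM, and 30.4 and 25.0 CPM, and ΔIDR1b was the lowest again, by 0.80 against the knockout and by 0.73 against WT. ASNS and CHAC1, the 2 genes with the C/EBP-ATF letters shown above, thus differed in direction with ΔIDR1b against the knockout.

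PSAT1 (chr9:78297125-78330093), an aminotransferase of serine synthesis, was the steadiest target gene. Its empty-vector levels ran from 161 to 197 CPM with overlapping states, apart from WT lying just above the knockout. With EWS-FLI1 the ΔIDR1b libraries, at 221 and 225 CPM, lay above those of the knockout (200.5 and 186 CPM) and WT (186 and 166 CPM). The difference from the knockout was not called (log2 0.21, adjusted p = 0.104, and 0.0445 with repeats paired). That from WT was called (log2 0.34, SE 0.10, adjusted p = 0.0162), and lost when only these 4 libraries were fitted (0.138) or when 1 of 3 libraries was left out, namely repeat 2 of WT (0.0668) or repeat 1 (0.0644) or 2 (0.0762) of ΔIDR1b.

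The second question is whether EWS-FLI1 alters these genes. Few of them passed the test. In knockout cells 0 of 10 were called by edgeR's quasi-likelihood test, against 0.0442% of all genes. DESeq2 called 0 as well. By edgeR's test 2 of the 10 had an unadjusted p under 0.05, as did 643 of all 20377 genes. In WT cells 1 was called, against 0.221%: TRIB3 rose 1.67-fold (log2 0.74, SE 0.16, adjusted p = 0.0265). In ΔIDR1b cells 1 was called, against 0.172%: CHAC1 rose 2.11-fold (log2 1.08, SE 0.24, adjusted p = 0.0476). Averaged over the 3 states both were called, against 0.466%, TRIB3 by 0.49 (SE 0.09, adjusted p = 0.00315) and CHAC1 by 0.71 (SE 0.16, adjusted p = 0.0275).

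These EWS-FLI1 calls rested on few libraries. TRIB3 in WT cells had an adjusted p of 0.0810 and 0.533 without repeats 1 and 2 of the empty-vector group, of 0.158 without repeat 2 of the EWS-FLI1 group and of 0.298 when only the 4 WT libraries were fitted. CHAC1 in ΔIDR1b cells fell to 0.40 on the log2 scale without repeat 1 of the EWS-FLI1 group (adjusted p = 1), was lost without either empty-vector repeat (0.0636 and 1) and was not called by DESeq2 (0.983). The averaged CHAC1 value fell to 0.48 without that EWS-FLI1 library (adjusted p = 0.284). It also lost its call without repeat 2 of the knockout (0.212), WT (0.216) or ΔIDR1b (0.163) empty-vector group and without repeat 1 (0.0994) or 2 (0.135) of the knockout EWS-FLI1 group, and DESeq2 did not call it (0.427), so that 13 of 20 alternatives kept the call. The averaged TRIB3 call held in every alternative tried. TRIB3 was higher with EWS-FLI1 in all 3 states without overlap (log2 0.39 in knockout and 0.35 in ΔIDR1b cells, neither called alone).

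Fitting the repeats as pairs within each vector, a pairing taken from these values and not from the labels, added calls of EWS-FLI1 effects. CHAC1 in WT cells then passed (log2 0.75, adjusted p = 0.00471), as did CEBPB (0.52, adjusted p = 0.0199) and PPP1R15A (0.45, adjusted p = 0.00169) in ΔIDR1b cells, which were 0.175 and 0.0999 without the pairing. The pairing also raised the share of all genes called, from 0.221% to 0.584% in WT and from 0.172% to 0.535% in ΔIDR1b cells. None of the genes other than TRIB3 and CHAC1 passed the test for the averaged EWS-FLI1 effect in the main fit, which had no pairing. PPP1R15A was called in 1 of 20 alternatives. In the main fit the 95% interval of the averaged log2 difference lay above 0 for 3 of these other genes: SESN2 at 0.19 (0.01 to 0.37, adjusted p = 0.579), PSAT1 at 0.13 (0.02 to 0.25, adjusted p = 0.538) and PPP1R15A at 0.18 (0.05 to 0.30, adjusted p = 0.340). Their values in ΔIDR1b cells were 0.36 for SESN2, whose vectors overlapped, 0.26 for PSAT1 and 0.45 for PPP1R15A, which did not overlap. The averaged value was 0.10 for ATF4 (-0.01 to 0.21), 0.08 for CEBPB (-0.08 to 0.24), -0.05 for DDIT4 (-0.18 to 0.07) and 0.04 for ASNS (-0.12 to 0.20). That of DDIT3, -0.04 (-0.24 to 0.16), joined values of opposite sign: 0.37 in knockout (0.03 to 0.70, unadjusted p = 0.0323, adjusted p = 1), -0.30 in WT and -0.19 in ΔIDR1b cells by edgeR's test. FLI1 RNA was about as high in knockout as in ΔIDR1b cells and higher in WT cells, and its part in the size of these effects was not tested.

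**Figure D3:**
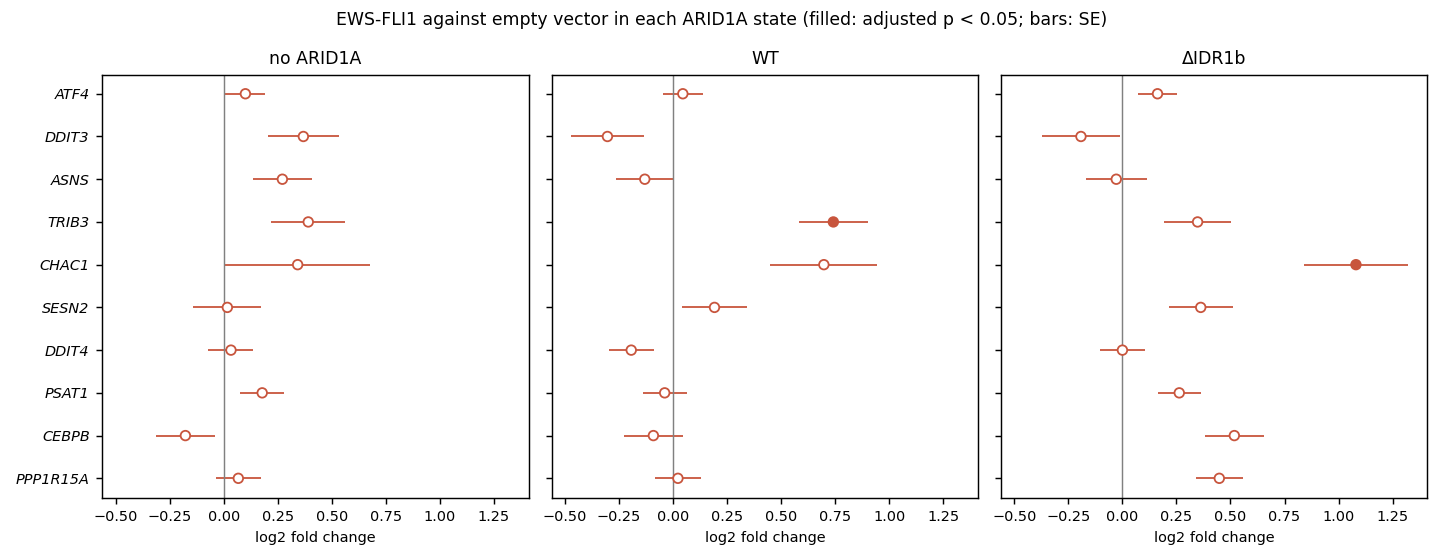
Log2 fold change (horizontal axes, bars are standard errors) of EWS-FLI1 against empty vector for each gene in knockout, WT and ΔIDR1b cells; filled points passed an adjusted p under 0.05. TRIB3 in WT cells and CHAC1 in ΔIDR1b cells are the 2 filled points.

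The third question is whether the ARID1A state changes the effect of EWS-FLI1. By edgeR's quasi-likelihood test 0 of the 10 genes passed in any of the 3 interaction contrasts, and DESeq2 called 0 too. The background was 0.0245% for WT against knockout, 0.0196% for ΔIDR1b against knockout and 0% for ΔIDR1b against WT. At an unadjusted p under 0.05 the counts were 2, 3 and 3 of the 10 genes, out of 884, 702 and 741 of all genes. CEBPB had the largest shift relative to its error. EWS-FLI1 moved it by -0.18 in knockout, -0.09 in WT and 0.52 in ΔIDR1b cells, and the difference between ΔIDR1b and knockout was 0.70 (SE 0.19, adjusted p = 1). With pairing within each vector and GC and length trends removed this difference was 0.76 (adjusted p = 0.0280), the one interaction called for these genes in any alternative.

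The 10 genes did not vary as a unit. Over the 12 libraries CHAC1 and SESN2 had a Pearson r of 0.96 in log2 CPM, TRIB3 and CHAC1 of 0.91 and TRIB3 and SESN2 of 0.89. A further set was formed by DDIT4 and PPP1R15A (0.94), DDIT3 and PPP1R15A (0.90), DDIT3 and DDIT4 (0.88) and DDIT3 and ASNS (0.87). Between the sets the values were negative, down to -0.89 for SESN2 and DDIT4. ATF4 RNA went with ASNS (0.76) and hardly with CHAC1 (0.02), TRIB3 (-0.10) or SESN2 (-0.10). These values describe 12 libraries in 6 groups that share their ARID1A states, and they largely restate the group differences above.

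**Figure D4:**
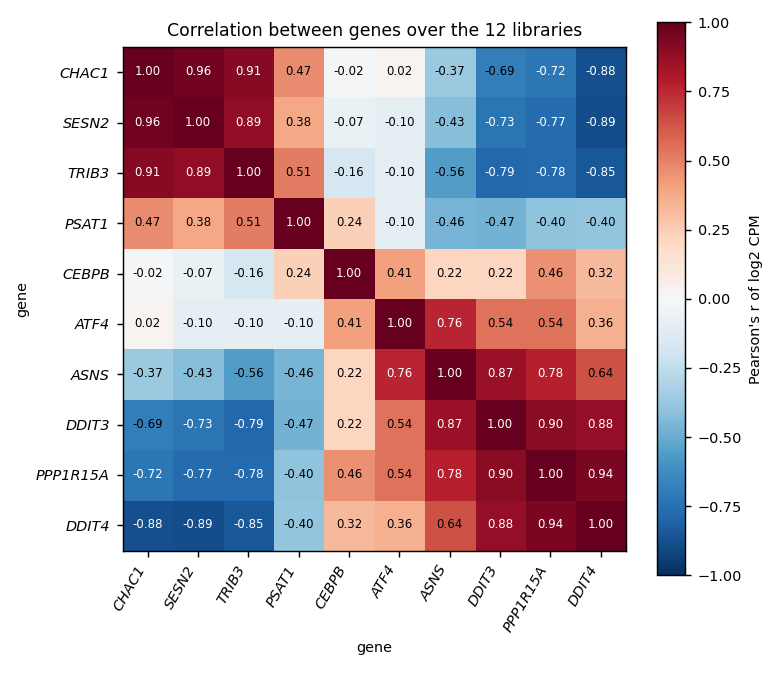
Pearson's r of log2 CPM between each pair of the 10 genes (both axes list the genes) over the 12 libraries, from -1 in blue to 1 in red. CHAC1, SESN2 and TRIB3 form 1 block at 0.89 to 0.96, DDIT4, PPP1R15A and DDIT3 another at 0.88 to 0.94, and the blocks are negatively related.

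Among 10685 other genes with a mean of at least 10 CPM, the closest to ATF4 in pattern over the 12 libraries were DDX49 (r = 0.94), NPM3 (0.93), MRFAP1 (0.92), SELENOF (0.92) and TMED9 (0.92). The closest to CHAC1, the gene with the widest range, were FBXO34 (0.97), NARS1 (0.96), EGR1 (0.96), SLC39A14 (0.96) and PPM1E (0.96). NARS1 is the asparaginyl-tRNA synthetase, and its mean rose from 115 CPM in knockout to 147 CPM in ΔIDR1b cells with the empty vector, a far smaller step than that of CHAC1.

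Other genes of the pathway were counted from 4 lists without the 10 genes: amino acid and one-carbon synthesis, amino acid transporters, aminoacyl-tRNA synthetases and other reported ATF4 or CHOP targets, 76 genes of which 75 were tested. With the empty vector 17 rose and 4 fell in WT against knockout cells, and 16 rose and 13 fell in ΔIDR1b against knockout cells. ΔIDR1b against WT had 9 higher and 14 lower. The shares called were 28%, 38.7% and 30.7%, beside 11.7%, 33.3% and 24.5% of all genes. With EWS-FLI1 against the empty vector, 1 of the 75 was called in any single ARID1A state, GADD45A in WT cells, which fell by 0.45.

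The lists differed in direction. Over all tested genes with the empty vector, 6.5% were called higher and 5.19% lower in WT against knockout cells, 16.4% and 16.8% in ΔIDR1b against knockout cells, and 11.1% and 13.4% in ΔIDR1b against WT cells. Of 20 aminoacyl-tRNA synthetases, which charge tRNAs with amino acids, 7 rose and 0 fell with WT ARID1A, and 7 rose and 2 fell with ΔIDR1b, against the knockout with the empty vector. MARS1 went from 153 CPM in knockout to 220 CPM in WT and 278 CPM in ΔIDR1b cells (log2 0.52 and 0.86), and AARS1 from 381 to 536 and 562 CPM. Of 12 amino acid transporters 4 rose and 1 fell with WT, and 7 rose and 1 fell with ΔIDR1b. SLC7A11, the cystine importer, rose from 13.3 CPM to 21.8 CPM with WT (log2 0.71, SE 0.18, adjusted p = 0.00788) and to 35.3 CPM with ΔIDR1b (log2 1.40, SE 0.17, adjusted p = 1.18e-07), a stepwise order like that of TRIB3. SLC3A2, the heavy chain that carries SLC7A11 and SLC7A5, was the 1 that fell, by 0.57 and 0.78. Of 16 synthesis genes, which leave out ASNS and PSAT1, 1 rose and 0 fell with WT (6.25%, beside 11.7% of all genes). With ΔIDR1b 0 rose and 2 fell (12.5%, beside 33.3%).

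Upstream of ATF4, 2 of the 4 eIF2α kinases were called in ΔIDR1b against knockout cells with either vector, 1 in each direction, beside 33.3% and 35.9% of all genes. EIF2AK1 (HRI) and EIF2AK4 (GCN2) were not called in any comparison of ARID1A states. EIF2AK3, the kinase PERK of the endoplasmic reticulum, was lower in ΔIDR1b than in knockout cells, in the empty-vector libraries (26.8 against 43.1 CPM, log2 -0.68, SE 0.15, adjusted p = 4.27e-04), by -0.70 in the EWS-FLI1 libraries, and in those also with WT against the knockout (-0.49). EIF2AK2 (PKR) was higher with ΔIDR1b than in the knockout (0.29 and 0.38). PPP1R15B, the constitutive counterpart of PPP1R15A, went the other way from it with WT ARID1A, rising from 143 to 209 CPM (log2 0.55, SE 0.10, adjusted p = 2.24e-04), and was lower with ΔIDR1b than with WT (-0.73). Of the whole list of 22 genes of eIF2α control, 3 rose and 0 fell with WT (13.6%, near the 11.7% of all genes) and 3 rose and 7 fell with ΔIDR1b (45.5%, beside 33.3%).

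ATF3, a bZIP repressor that ATF4 and CHOP induce, stood at 860.1 CPM in knockout, 1389 CPM in WT and 600 CPM in ΔIDR1b cells with the empty vector. It rose with WT (log2 0.69, SE 0.09, adjusted p = 2.30e-06) and fell with ΔIDR1b (-0.52, SE 0.09, adjusted p = 3.10e-05) against the knockout, and with EWS-FLI1 it did the same (0.62 and -0.58). None of the 10 genes was called in opposite directions by the 2 forms. ATF5 was not called in these comparisons, and CEBPG rose with both forms with the empty vector (0.53 and 0.39). Of 20 stress bZIP factors and ATF4 partners, 7 rose and 1 fell with WT and the empty vector (40%, beside 11.7% of all genes). With ΔIDR1b 7 rose and 4 fell (55%, beside 33.3%).

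The other arms of the unfolded protein response were set beside the genes that fell. Of 18 IRE1 and ATF6 arm genes 3 rose and 1 fell with WT against the knockout (22.2%, beside 11.7% of all genes). With ΔIDR1b 1 rose and 9 fell (55.6%, beside 33.3%). ΔIDR1b against WT had 2 higher and 10 lower (66.7%, beside 24.5%). HSPA5, the main chaperone of the endoplasmic reticulum, had 2147 CPM in knockout, 2967 CPM in WT and 672 CPM in ΔIDR1b cells (log2 0.47 and -1.68 against the knockout), and HERPUD1 fell from 153 CPM in WT to 67.5 CPM in ΔIDR1b cells (log2 -1.18). Of the 10 genes, 6 were called lower with ΔIDR1b than with WT in the empty-vector libraries, and 1, TRIB3, was called higher. CHAC1, SESN2 and PSAT1 were not called there (log2 0.22, 0.19 and 0.04).

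DDIT4 is also a hypoxia-induced gene, and the hypoxia list without it moved down. Of 14 genes 0 rose and 7 fell with WT against the knockout (50%, beside 11.7% of all genes). With ΔIDR1b 1 rose and 9 fell (71.4%, beside 33.3%). The counts were the same when EWS-FLI1 was present, beside 18.1% and 35.9% of all genes. Between ΔIDR1b and WT 0 were higher and 9 lower with either vector (64.3%, beside 24.5% without and 18.6% with EWS-FLI1). ADM, which encodes adrenomedullin, fell from 365 CPM to 142 CPM with WT and to 61.4 CPM with ΔIDR1b, ANKRD37 from 161 to 60.7 and 11.9 CPM, and VEGFA from 420.3 to 240.5 and 141 CPM. SESN2 is also a p53 target, and of 15 other p53 targets 4 rose and 0 fell with WT (26.7%, beside 11.7% of all genes) and 6 rose and 1 fell with ΔIDR1b (46.7%, beside 33.3%). CDKN1A was one of them (63.8 CPM in knockout, 95.6 CPM in WT and 115 CPM in ΔIDR1b cells). CDKN1A, BBC3, GDF15 and SESN1 were also in the list of other reported ATF4 or CHOP targets. So were VEGFA and NDRG1 of the hypoxia list, so these lists are not separate from the ATF4 genes. PPP1R15A also belongs to the genes that respond fast to stimuli. Of 15 immediate early genes 5 rose and 6 fell with WT (73.3%, beside 11.7% of all genes). With ΔIDR1b 3 rose and 9 fell (80%, beside 33.3%). FOS fell from 186 CPM in knockout to 68.3 CPM and 18.0 CPM, whereas EGR1 rose with WT from 10.2 to 20.1 CPM.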

How the data were processed

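The authors deposited raw counts, which per the file headers are read pairs per gene name from featureCounts 2.0.1 and the GENCODE 41 exon annotation of GRCh38.p13, not normalized. Pairs needed both ends aligned and were left out where they mapped more than once or touched more than 1 gene, and strand was ignored. STAR is named in the submitters' processing notes, and its version is not given in the sources used here.

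Low counts were filtered with edgeR's filterByExpr (at least 10 counts, total at least 15), libraries were TMM-scaled, and a single quasi-likelihood model with group means was fitted across the 12 libraries (R 4.3.3, edgeR 4.0.16, limma 3.58.1, common biological variation 10.1%). Each of 13 contrasts was tested 2-sided over 20377 genes, with Benjamini-Hochberg adjustment within the contrast, and a gene was called at an adjusted p under 0.05. Log2 fold changes and standard errors come from that fit. The same steps were tested on simulated counts with 200 genes changed in WT cells with EWS-FLI1. Each was changed 2-fold, up or down, and scarce genes were not chosen, so the shares recovered do not cover smaller changes or scarce genes. For EWS-FLI1 in WT cells 88% of them were recovered, with 15 false calls. For the average over states 53% were recovered, with 10 false calls.

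The 10 genes, the 10 lists (175 genes, 9 in more than 1 list) and the tests were chosen with earlier results of these data known. Counts of lists leave out the 10 genes. From a list, up to 4 called genes per comparison were eligible to be named, by size of change, with at least 1 CPM and no overlap between libraries. Alternatives were upper-quartile and relative log expression scaling, DESeq2 1.42.0, no filter on low counts, fits to the compared libraries only, repeat blocks, removal of GC and length trends (GC known for 96.9% of tested genes), and leaving out each library.

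The labels number the repeats without saying that equal numbers share a batch. Deviations of same-numbered libraries correlated across genes at 0.104 to 0.194 within the empty-vector groups (3 pairs), at 0.153 to 0.412 within the EWS-FLI1 groups (3 pairs) and at -0.223 to -0.00785 across vectors (9 pairs), so repeats were paired by the values within each vector and not across them. All repeat pairs differed beyond sampling noise (chi-square per degree of freedom 3.02 to 12.1). Floors from counts cover counting error only. Intervals around the differences come from the quasi-likelihood fit and also include the spread between these libraries.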

Additional observations from a re-analysis of the deposited data

How the results depend on the processing

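Of 42 called values of single genes, 31 were called in every alternative and 0 changed sign. Another 14 values were called only in an alternative, and 74 were never called, 29 of which changed sign at least once. A replicate block over all 12 libraries left the number of genes called as it was in every comparison, for example 8 in ΔIDR1b against knockout and 7 in ΔIDR1b against WT with the empty vector. The block within each vector gave 2 genes for EWS-FLI1 in WT cells (1 without it), 3 in ΔIDR1b cells (1 without it) and 8 for ΔIDR1b against WT with EWS-FLI1 (5 without it), where CHAC1 (0.53), SESN2 (0.37) and ATF4 (-0.21) were added. The share of all genes called rose as well with this block, from 0.221% to 0.584%, from 0.172% to 0.535% and from 18.6% to 24.8%, respectively. With GC and length trends removed as well, these block fits gave 2 in WT cells, 3 in ΔIDR1b cells and 1 for the interaction of ΔIDR1b against knockout. Beside these stood 1.06%, 0.756% and 0.054% of all genes. Removing GC and length trends alone gave 3 for EWS-FLI1 in ΔIDR1b cells, beside 0.501% of all genes. No filter on low counts gave 2 there and 2 in WT cells (0.131% and 0.189% of all genes). Fitting only the compared libraries gave 0 in WT cells (0.123%). DESeq2 gave 0 in ΔIDR1b cells (0.196%) and 1 for the average (0.515%). Leaving out single libraries gave 0 to 1 genes in WT cells, 0 to 2 in ΔIDR1b cells and 1 to 2 for the average. CHAC1 in ΔIDR1b against WT with EWS-FLI1 turned from 0.60 to -0.078 without repeat 1 of ΔIDR1b and rose to 1.07 without repeat 2. The cause of these shifts was not tested. The average over states has no separate fit to the compared libraries, since all 12 enter it. Depth limits CHAC1 in knockout cells most, which rests on 46 to 73 counts.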

Other observations

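Among the immediate early genes, EWS-FLI1 moved several that no comparison of the 10 stress response genes covers. In WT cells IER2 rose from 32.1 to 67.2 CPM (log2 1.06, SE 0.15, adjusted p = 3.23e-05 by edgeR's quasi-likelihood test), ZFP36 from 20.7 to 38.5 CPM and JUNB from 164 to 275 CPM, and FOS fell from 68.3 to 44.0 CPM. In ΔIDR1b cells ZFP36 (11.7 to 22.8 CPM), JUNB (73.4 to 134 CPM) and IER2 (30.9 to 54.1 CPM) rose as well. The differences between states in these effects did not pass the interaction test for any of the 15 genes.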
